A study of Rattus norvegicus with 4 samples.

Results

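The genes described here encode the dystrophin-associated membrane complex of muscle and a membrane repair protein: dystrophin (Dmd), its homologue utrophin (Utrn), dystroglycan (Dag1), alpha-, beta- and delta-sarcoglycan (Sgca, Sgcb, Sgcd), sarcospan (Sspn) and dysferlin (Dysf). Members were found by gene symbol in the probe annotation. Of the 8 genes, 7 had a probe set, and these 7 stand among 14218 genes with a probe set of a single symbol. They were covered by 19 of the 31099 probe sets of each array. The annotation table used here gave the symbol Sgcd to no probe set, so delta-sarcoglycan was not analysed here.

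RNA of skeletal muscle from F344/DuCrlCrlj rats was hybridised to 4 single-colour arrays, in a model of intermittent claudication, the leg pain that poor blood flow brings on during walking. The groups were sham, ischemia, ischemia + ES (electrical stimulation) and ischemia + exercise, with 1 array each. The muscle sampled, the age of the rats, the number of animals behind an array, and how long or how often stimulation and exercise were given are not stated in the sources used here. Each ratio below compares 2 arrays without replicates, so it carries no error and no p-value, and the number of arrays limits the precision.

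The dystrophin complex ties the actin cytoskeleton of a muscle fibre to the laminin of the basement membrane around it. Dystrophin binds actin on the inside and beta-dystroglycan at the membrane, alpha-dystroglycan binds laminin on the outside, and the sarcoglycans and sarcospan form a membrane-embedded subcomplex that steadies this link. Loss of dystrophin, of a sarcoglycan or of dysferlin causes a muscular dystrophy, and utrophin, concentrated at neuromuscular junctions in adult muscle, can replace dystrophin in part. Dysferlin acts on another step, the calcium-triggered fusion of vesicles that patches a torn membrane.

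The largest departure among the members was that of Sgcb, which was lower on the ES array than on the other 3 arrays with each of its 3 probe sets. Dysf was highest on the ES array with both of its probe sets. Dag1 and Sgca differed by at most 1.19-fold on their brightest probe sets in each of the 6 comparisons made between arrays. No member reached 2-fold in any of these comparisons. Dmd and Utrn were too dim to be compared.

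The start regions of Sgcb and Sgca, the sarcoglycans measured among the members, are shown first. These genes encode partners of 1 subcomplex, and their log2 ratios had opposite signs in ES against ischemia. The Sgca ratio there, 0.18, was small and lay within the 25th to 75th percentile of all genes (-0.16 to 0.30). Each window holds the 250 bases before the RefSeq transcript start on assembly GRCr8, written 5′ to 3′ on the gene's strand. Capitals mark matches to the E-box (CANNTG), the site of myogenic factors such as MyoD. The Sgcb window lies at chr14:34917413-34917662 on the plus strand and the Sgca window at chr10:80416076-80416325 on the minus strand. The annotated span of Sgca begins inside its window.
Sgcb: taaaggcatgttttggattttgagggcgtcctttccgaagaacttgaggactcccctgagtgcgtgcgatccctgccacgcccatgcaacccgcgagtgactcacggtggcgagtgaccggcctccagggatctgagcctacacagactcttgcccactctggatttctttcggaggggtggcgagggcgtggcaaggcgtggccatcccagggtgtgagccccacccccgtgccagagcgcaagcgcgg
Sgca: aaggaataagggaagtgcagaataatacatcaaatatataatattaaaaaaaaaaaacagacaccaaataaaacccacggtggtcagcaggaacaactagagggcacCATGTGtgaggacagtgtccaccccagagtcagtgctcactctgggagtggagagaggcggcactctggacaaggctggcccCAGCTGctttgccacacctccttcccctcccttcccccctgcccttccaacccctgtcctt
The 2 E-boxes of Sgca stand against 0 in Sgcb, while 65.5% of 33469 windows of the same length held at least 1. Dysf, which was highest with ES, also had 0 E-boxes in its window, with 63.6% G or C and 15 CG pairs. The Sspn window held 2 E-boxes, with 55.2% G or C and 6 CG pairs. Any part of E-boxes in the ratios with ES was not tested. Base composition also differed, with 62.8% G or C and 18 CG pairs for Sgcb against 50.8% and 2 for Sgca, where the medians of all windows were 51.2% and 5. Searches on both strands for the GC box (GGGCGG, in 30.5% of windows), the TATA box (TATAAA, in 12.9%) and the CArG box (in 1.497%) found no match in either window. A match describes letters only, and no binding was measured here.

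Signals are given in the linear intensity units of the deposited table, brought to a common trimmed mean. The floor was a signal of 30.1, the 50th percentile of all values on the 4 arrays, and values below it were set to it before ratios were taken. The brightest probe set stood for a gene. Signals of different probe sets depend on the probes, so only the same probe set is compared across arrays. In bulk muscle, fewer cells of a type and less RNA per cell cannot be told apart.

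**Figure D1:**
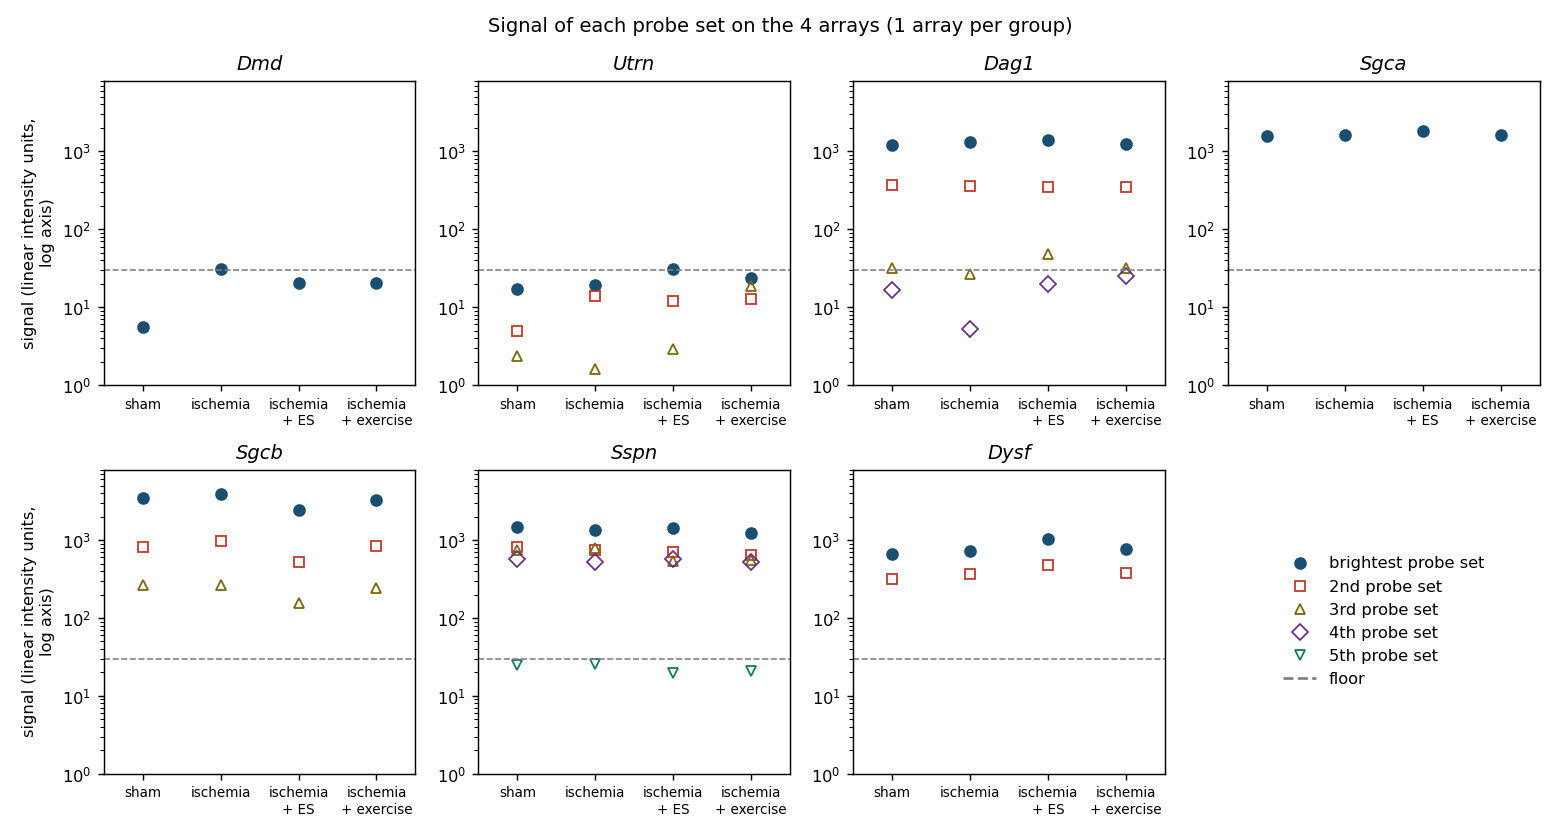
Signal of each probe set of the 7 measured genes on the 4 arrays, on a log axis in linear intensity units, with 1 point per array. Filled circles are the brightest probe set of a gene, open symbols are its other probe sets, and the dashed line is the floor of 30.1. The 3 probe sets of Sgcb are lowest on the ES array, and the points of Dmd and Utrn lie near or under the floor.

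Of the 19 probe sets, 12 lay above the floor on all 4 arrays, 3 on some arrays and 4 on none. The brightest probe set was above the floor on all 4 arrays for 5 genes: Dag1, Sgca, Sgcb, Sspn and Dysf. These 5 are the members compared below. They were taken from the member list by signal and not by their differences, but that list was chosen with earlier results of these data known.

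Dmd encodes the rod-like protein that anchors the complex to actin. Its single probe set read 5.58 with sham, 31.1 with ischemia, 20.5 with ES and 20.6 with exercise. Only the ischemia array passed the floor, by 1.03-fold, so no difference can be stated for dystrophin. With a floor at the 30th percentile the same readings gave a bound of 1.51 in log2 ratio for ischemia against sham, on a dim probe set.

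Utrn encodes the homologue that binds the same membrane partners. The brightest of its 3 probe sets read 17.2 with sham, 19.4 with ischemia, 31.3 with ES and 23.4 with exercise. It passed the floor on the ES array alone, by 1.04-fold. The other Utrn probe sets stayed under the floor on all 4 arrays, with signals from 1.62 to 18.7. These low readings give no level of dystrophin or utrophin mRNA, since a dim probe set may also be a poorly responding one.

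Dag1 encodes the precursor of alpha- and beta-dystroglycan. Its brightest probe set read 1191 with sham, 1317 with ischemia, 1402 with ES and 1229.95 with exercise. The second probe set read 369, 358, 347 and 345 in that order. The log2 ratios of the brightest probe set ran from -0.10 (exercise against ischemia) to 0.24 (ES against sham), and the second probe set had the opposite sign in ES against sham, at -0.09. The third probe set, near the floor, read 31.7 with sham, 26.8 with ischemia, 48.0 with ES and 32.03 with exercise. The first 2 probe sets of Dag1 thus differed between arrays by at most 1.18-fold, and they had opposite signs in ischemia against sham (0.15 and -0.05) and in ES against ischemia (0.09 and -0.04).

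Sgca encodes alpha-sarcoglycan, the sarcoglycan largely restricted to striated muscle. Its single probe set read 1557 with sham, 1636 with ischemia, 1853 with ES and 1632 with exercise. The ES array was the highest, at a log2 ratio of 0.18 against ischemia and 0.25 against sham. Ischemia and exercise gave almost the same signal, with a log2 ratio of -0.003.

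Sgcb encodes beta-sarcoglycan, around which the sarcoglycan subcomplex assembles together with delta-sarcoglycan. Its brightest probe set read 3502 with sham, 3946 with ischemia, 2416 with ES and 3276 with exercise. The second probe set read 822, 960.2, 517 and 849 in that order. The third read 264 with sham, 263 with ischemia, 154 with ES and 240.3 with exercise. On all 3 probe sets the ES array was the lowest and the other 3 arrays lay closer to each other than to it.

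Against ischemia, the ES array gave log2 ratios of -0.71, -0.89 and -0.77 on the 3 Sgcb probe sets, which is 1.63-fold, 1.86-fold and 1.71-fold lower. Against exercise the same probe sets gave -0.44, -0.72 and -0.64, and against sham -0.54, -0.67 and -0.78. These comparisons share the ES array and are not independent of one another. Exercise against ischemia gave smaller values, at -0.27, -0.18 and -0.13, and ischemia against sham gave 0.17, 0.22 and -0.004. On brightest probe sets, Sgcb was the only one of the 5 members compared to pass 1.5-fold in ES against ischemia, a count of 1 of 5 where 14.5% of 10092 genes passed in either direction, which is near this background. At least 1.5-fold lower were 4.72% of genes, and 269 had a lower ratio than Sgcb. Of 429 genes with 3 or more probe sets above the floor on both arrays, 8 were at least 1.5-fold lower on all of them (1.86%), and Sgcb was 1 of these. That count was chosen after the values of Sgcb were seen.

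Sspn encodes sarcospan, a tetraspan-like protein held by the sarcoglycans. Its brightest probe set read 1481 with sham, 1366 with ischemia, 1419.7 with ES and 1231 with exercise. The exercise array was the lowest, at a log2 ratio of -0.27 against sham and -0.15 against ischemia. The second probe set read 808.02, 741, 701 and 641, and the fourth 578, 528, 579 and 521, in the same order of arrays. The third probe set behaved otherwise, reading 741 with sham, 800.4 with ischemia, 539.7 with ES and 548 with exercise. On it ES and exercise were both lower than ischemia, at log2 ratios of -0.57 and -0.55, where the other probe sets above the floor gave -0.08 to 0.13 with ES and -0.21 to -0.02 with exercise. The probe sets of Sspn therefore do not give 1 answer for ES, and the mean of all of them, at -0.09, had the opposite sign to the brightest, at 0.06. The fifth probe set was under the floor on all 4 arrays.

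Dysf encodes dysferlin, the membrane repair protein. Its brightest probe set read 653 with sham, 728 with ischemia, 1029 with ES and 761 with exercise. The second probe set read 315, 362, 473 and 380.0 in that order. Both probe sets were highest with ES and lowest with sham, with ischemia and exercise in between. Against ischemia, ES gave log2 ratios of 0.50 and 0.38, which is 1.41-fold and 1.31-fold higher. Against sham, ES gave 0.66 and 0.58, and the brightest probe set passed 1.5-fold there (1.58-fold). It was 1 of 5 members to do so, where 16.7% of genes passed in either direction and 12.4% were at least 1.5-fold higher. Dysf lay within the spread of all genes compared, since 1311 of 10092 genes had a higher ratio in ES against ischemia and 1020 in ES against sham.

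**Figure D2:**
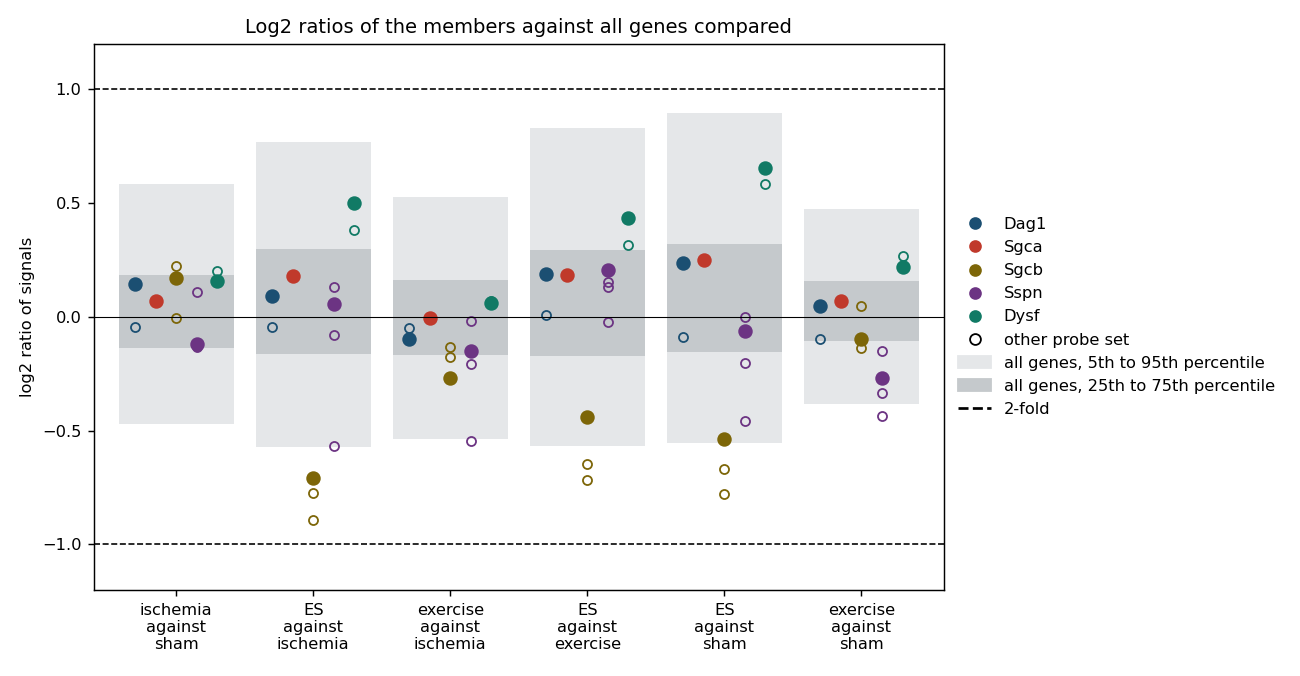
Log2 ratio of signals (vertical axis) in the 6 comparisons (horizontal axis) for the 5 members above the floor on all 4 arrays. Filled points are brightest probe sets, open points other probe sets above the floor on all 4 arrays, and the grey bands hold 25th to 75th and 5th to 95th percentiles of all 10092 genes compared. All 3 Sgcb points lie under the 5th percentile of -0.57 in ES against ischemia, and no point reaches the dashed 2-fold lines.

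Read by comparison, ischemia against sham gave 0 of 5 members past 2-fold, where 1.64% of 10092 genes passed. The member ratios ran from -0.12 (Sspn) to 0.17 (Sgcb), with a median of 0.15 beside 0.002 for all genes. The median size of the log2 ratio, regardless of sign, was 0.15 for the members and 0.16 for all genes. Here and below, all genes are those above the floor on at least 1 array, a looser filter than that of the 5 members.

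ES against ischemia gave 0 of 5 past 2-fold, where 3.07% of genes passed. The ratios ran from -0.71 (Sgcb) to 0.50 (Dysf), and the median was 0.09 beside 0.05 for all genes. Partners of 1 complex differed on this pair of arrays: the log2 ratio of Sgcb minus that of Sgca was -0.89, and minus that of Dag1 it was -0.80.

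Exercise against ischemia gave 0 of 5 past 2-fold, where 2.01% of genes passed. The ratios ran from -0.27 (Sgcb) to 0.06 (Dysf), with a median of -0.10 beside 0.00 for all genes. This comparison and the preceding one share the ischemia array. Set directly against exercise, ES gave 0 of 5 past 2-fold (background 4.05%), from -0.44 (Sgcb) to 0.44 (Dysf). Against sham, ES gave 0 of 5 past 2-fold (background 4.84%), from -0.54 to 0.66, and exercise gave 0 of 5 (background 0.446%), from -0.27 (Sspn) to 0.22 (Dysf).

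Markers of other cells and of fibre state moved on the same arrays. In ES against ischemia 3.07% of all genes passed 2-fold in either direction. Of 9 measured endothelial markers, 5 were more than 2-fold higher with ES than with ischemia. The summed signal of the 9 was 2466 with sham, 2352 with ischemia, 4769 with ES and 2599 with exercise. Markers of regenerating fibres and satellite cells summed to 4231, 4588, 8343 and 4006 in that order. With ES against ischemia 3 of 9 were more than 2-fold higher, and 8 of the 9 ratios were above 0. Myh8 alone read 86.4 with ischemia and 2393 with ES. Myod1 was lower with ES (756 and 630) and Myf6 almost unchanged (2285 and 2299). Pax7 and Myf5 of that list were not measured. Slow-fibre markers, 10 of 10 above the floor, summed to 66333 with sham, 11603 with ischemia, 23214 with ES and 76603 with exercise. Fast-fibre markers, 13 of 13 above the floor, summed to between 131647 and 139697, so the defining genes of skeletal muscle were present on all 4 arrays. Macrophage markers summed to 1810.4, 4214, 5087 and 1859. In ES against ischemia 5 of the 12 macrophage ratios were above 0 and 7 below, with a median of -0.05. Lyz2, the brightest of that list, read 2073 with ischemia and 2553 with ES and weighs most in its sums. Fibroblast markers summed to 14979, 27422, 23250.1 and 15224, and pericyte and smooth muscle markers to 11127, 10402, 12425 and 11523. Des, abundant in muscle fibres, makes up most of the last sums, and the 9 other markers of that list summed to 1995, 1569, 2485 and 1691. Of the 10, 2 were more than 2-fold higher with ES than with ischemia and 1 was more than 2-fold lower. At the lower threshold of 1.5-fold, 7 were higher, where 989 of 10092 genes were. The median log2 ratio of the 10 was 0.69. Lmod1 went the other way and was 2.34-fold lower with ES. Tendon markers summed to 1409.7, 2273, 1215 and 2134, and Schwann cell markers, with Sox10 under the floor on all arrays, to 1451, 1118, 1506 and 1307. Pmp22, at 1003, 793, 1062 and 958, makes up most of the Schwann cell sums. In ES against ischemia 4 of the 5 Schwann cell ratios were above 0 and 1 below. Neuromuscular junction markers summed to 968, 814, 1345 and 998, with Chrng and Musk under the floor on all arrays. The part of these shifts in the values of Sgcb and Dysf was not tested.

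The ES array also had the highest 3' over 5' signal ratio of the actin control, a measure of RNA integrity and labelling, at 5.94 against 4.38 with sham, 3.81 with ischemia and 4.34 with exercise. The GAPDH ratio was 1.26 with ES and 1.16, 1.04 and 1.16 on the other arrays. Its part in the lower Sgcb signal with ES was not tested.

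**Figure D3:**
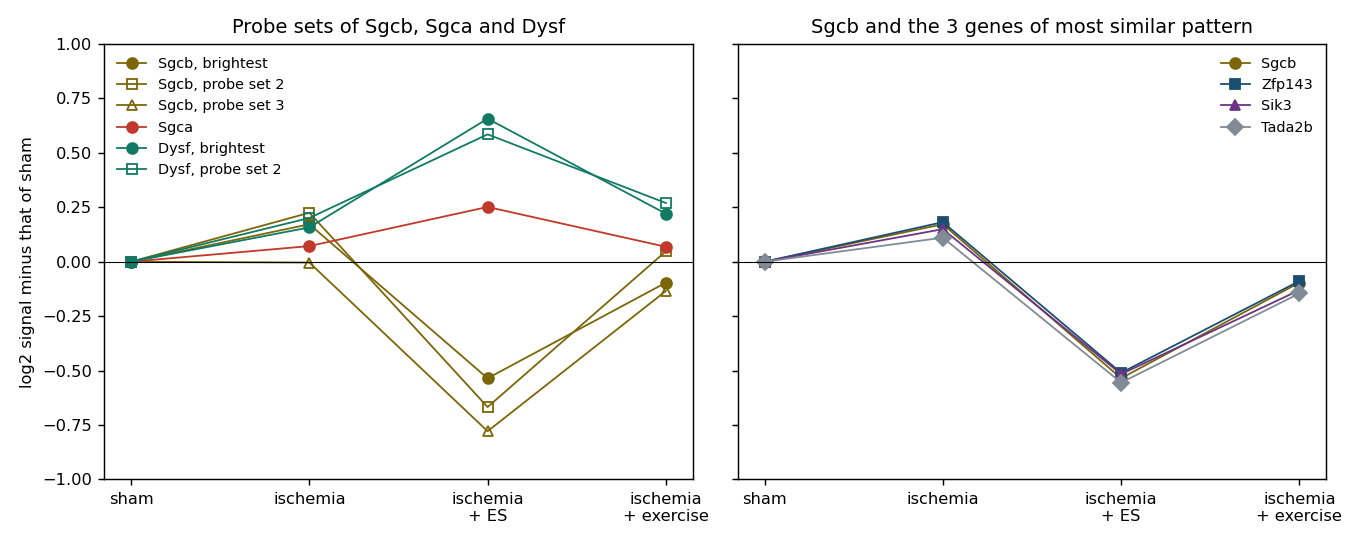
Log2 signal minus that of the sham array (vertical axis) on the 4 arrays (horizontal axis), with 1 line per probe set. The left panel holds Sgcb, Sgca and Dysf, and the right panel Sgcb with the 3 genes closest to it in pattern. With ES the 3 Sgcb lines reach -0.54, -0.67 and -0.78 while the brightest Dysf line reaches 0.66.

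Sgcb had the largest range of log2 signal among the 5 members. Among 8619 genes above the floor on all 4 arrays and outside the lists, the 3 closest to it were Zfp143, Sik3 and Tada2b, by Euclidean distance between log2 signals centred on each gene's mean over 4 arrays. Their distances were 0.02, 0.04 and 0.05. Zfp143, which encodes a zinc finger transcription factor, read 164 with sham, 186 with ischemia, 115 with ES and 154 with exercise. Sik3 encodes a salt-inducible kinase and Tada2b a subunit of a histone acetyltransferase complex, and their log2 ratios in ES against ischemia were both -0.67. The other probe sets of Zfp143 and Sik3 gave -0.35 and 0.18, and Tada2b had a single probe set, while the further probe sets of Sgcb gave -0.89 and -0.77. With 4 arrays many patterns are close by construction, and nothing more than this likeness is stated.

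Of 12 other genes of the dystrophin complex listed, 6 had a probe set and 4 were above the floor on at least 1 array. None of the 4 passed 2-fold on its brightest probe set in any of the 6 comparisons. With a floor at the 30th percentile, 2 genes of the list did over the 3 comparisons with ischemia. At that floor 251 of 12567 genes were 2-fold higher and 209 lower in ischemia against sham. The numbers were 448 and 187 with ES against ischemia, and 306 and 268 with exercise against ischemia. Lowering the floor alters only genes with a reading under the main floor. In this list these were Dtnb, at 3.58 to 36.4, Nos1, at 7.84 to 27.8, and Sntg2, at 2.08 to 10.8. The 2 genes thus passed on dim readings, and no change is stated for them. Cav3, the muscle caveolin that binds dystroglycan and dysferlin, read 1067 with sham, 1022 with ischemia, 1315 with ES and 1173 with exercise, a log2 ratio of 0.36 for ES against ischemia. Sgce, epsilon-sarcoglycan, which stands in for alpha-sarcoglycan outside striated muscle, read 63.2, 58.1, 89.3 and 71.6, with ES 1.54-fold above ischemia. Dtna encodes alpha-dystrobrevin, which binds dystrophin and the syntrophins. Its 3 probe sets disagreed. The brightest read 827 with sham, 905 with ischemia, 750.1 with ES and 872 with exercise, and the second 272, 114, 181 and 200.2. In ischemia against sham the brightest gave 0.13, the second -1.26, which is past 2-fold, and the third 0.30. In ES against ischemia they gave -0.27, 0.67 and -0.18, and in exercise against ischemia -0.05, 0.82 and -0.19. The mean of the Dtna probe sets reversed the sign of the brightest in these 3 comparisons, so no direction is stated for it. Nos1, the neuronal nitric oxide synthase that the complex anchors, was under the floor on all 4 arrays, with signals from 7.84 to 27.8.

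Dystroglycan must carry a laminin-binding sugar chain, and 11 of 17 genes listed for its synthesis were measured, all above the floor on at least 1 array. None passed 2-fold in any comparison. With ES against ischemia 8 of the 11 ratios were below 0, with a median of -0.08 beside 0.05 for all genes. The ratios ran from -0.30 for Rxylt1, a xylosyltransferase of that chain, to 0.41 for Dpm2, which helps make the mannose donor. With ischemia against sham they ran from -0.35 for Pomgnt2 to 0.13 for B4gat1, both glycosyltransferases. With exercise against ischemia the highest was Pomgnt1 at 0.40, and Pomt1, which adds the first mannose, was at -0.24. Gmppb, which makes activated mannose, was under the floor with exercise, so its log2 ratio of -0.47 against ischemia is a bound.

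Of 30 genes listed for membrane repair, 26 had a probe set and 23 were compared, and none passed 2-fold in any comparison. Trim72, which encodes MG53, a protein that brings vesicles to a membrane tear, read 3099.9 with sham, 2850.1 with ischemia, 2828 with ES and 3228 with exercise. Its log2 ratio in ES against ischemia was -0.01, where that of Dysf was 0.50. Capn3, the muscle calpain, read 812, 693, 797 and 793. Myof encodes myoferlin, a close relative of dysferlin, and read 55.3 with sham, 83.0 with ischemia, 89.8 with ES and 54.7 with exercise. It was 1.501-fold higher with ischemia than with sham and 1.52-fold lower with exercise than with ischemia, where Dysf differed by 1.12-fold and 1.04-fold. Over 6 alternatives the log2 ratios of Myof ran from 0.41 to 0.59 and from -0.60 to -0.42, so not all reached 1.5-fold. Anxa7, a calcium-dependent membrane-binding annexin, had the highest ratio with exercise against ischemia, at 0.52, with another probe set at 0.23. Pdcd6ip, which encodes the ESCRT-associated protein ALIX, had the lowest ratio with ES at -0.50, with other probe sets at -0.30 and -0.01.

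The integrin and laminin list held 16 measured genes of 16, and none passed 2-fold in ES against ischemia. In that comparison 14 of the 16 ratios were above 0, and the median was 0.34 beside 0.05 for all genes. Lamb1, a laminin beta chain, read 402 with sham, 446 with ischemia, 880.3 with ES and 370.4 with exercise, at a log2 ratio of 0.98. It passed 2-fold under quantile normalization, at 1.03, and under cyclic loess, at 1.01. Lama2, the alpha chain of the muscle laminin to which dystroglycan binds, was lowest of the list there at -0.05. Itgb1bp2, encoding melusin, a muscle partner of beta 1 integrin, read 965, 770.04, 1385 and 800.1, at 0.85 with ES. In ES against sham, 3 of the 16 genes were more than 2-fold higher, where 3.78% of all genes were: Hspg2 (perlecan), Agrn (agrin) and Lamb1, of which the first 2 encode proteins that bind dystroglycan. Their log2 ratios were 1.25, 1.15 and 1.13, and they were named after their values were seen. In ES against exercise, 2 of the 16 were more than 2-fold higher, where 2.95% of all genes were: Lamb1 at 1.25 and Hspg2 at 1.09, the latter at 0.99 with log2(signal + 30) without a floor. Exercise against ischemia gave a median of -0.08, from -0.55 for Parva (alpha-parvin) to 0.32 for Tln1 (talin 1), both adapters of integrins.

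Of 20 genes of the costamere and linker cytoskeleton, the structures that tie the complex to the Z-disc and intermediate filaments, 16 were compared. Xirp1, a stress-responsive actin-binding gene, read 744 with sham, 362 with ischemia, 441 with ES and 1046 with exercise. It was 2.05-fold lower with ischemia than with sham and 2.89-fold higher with exercise than with ischemia. It was the only gene of the list past 2-fold in either comparison, where 1.64% and 2.01% of all genes passed. On the scale log2(signal + 30) without a floor, its ratio in ischemia against sham was -0.98, just short of 2-fold. In ES against ischemia none passed, with Vim (vimentin) highest at 0.77 and Synm lowest at -0.58. Past 2-fold in the other comparisons with ES were Vim against sham (2.19-fold higher) and Xirp1 against exercise (2.37-fold lower). Each was 1 of the 16 genes compared, where 4.84% and 4.05% of all genes passed in either direction, so both counts are near this background. Synm encodes synemin, an intermediate filament protein that binds dystrophin and dystrobrevin, and read 4197, 4364, 2926 and 4176. That probe set was, like those of Sgcb, lowest on the ES array, and its 2 other probe sets were under the floor on all 4 arrays.

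**Figure D4:**
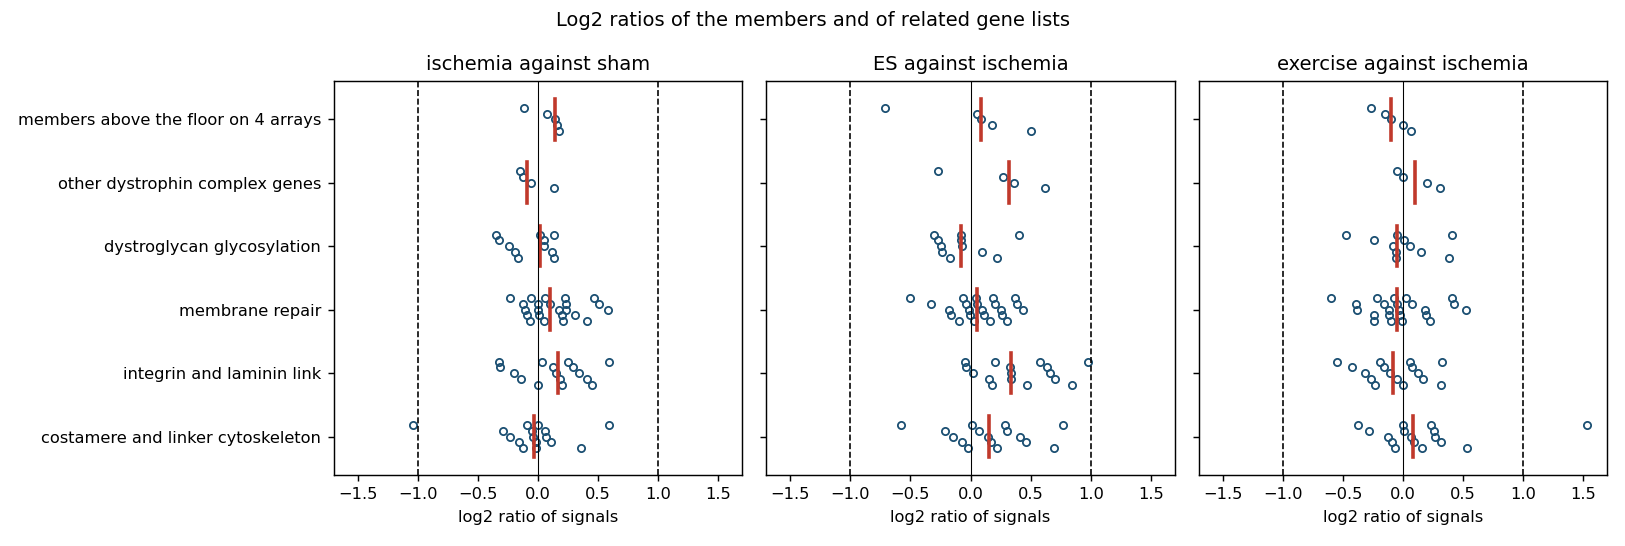
Log2 ratio of signals (horizontal axis) of the 5 members above the floor on all 4 arrays and of the measured genes of 5 related lists that were above the floor on at least 1 array, in 3 comparisons. Circles are genes, red bars list medians, and dashed lines mark 2-fold. Xirp1 is the gene past 2-fold in the left and right panels, and Sgcb lies at -0.71 in the middle panel.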

How the data were processed

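For each array the authors deposited a linear intensity for every probe set, and MAS5 is named, without a version, in the submitters' processing notes. The 2% trimmed mean was 150.1 on each array, so total mRNA cannot be compared. Signals were scaled to equal trimmed means, floored at the 50th percentile and compared as log2 ratios, with genes counted at 2-fold. Symbols came from the platform annotation of 2016, in which 20832 probe sets had 1 symbol, 436 had several and 9831 none. Gene identifiers matched the RefSeq table for 20764, and 0 symbols differed. Ratios were taken for 10092 genes that passed the floor on 1 or more arrays.

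The members and lists were chosen with earlier results of these data known. All members were named, with Cav3, Nos1, Trim72 and Capn3. Another gene of that rule is not reported here. From each list and each of the 3 comparisons of ischemia with sham, ES or exercise, up to 4 genes past 2-fold and up to 2 bounds were named, or otherwise the highest and lowest ratio. Symbols starting with LOC or RGD were left out. Alternatives were quantile and cyclic loess normalization (limma 3.58.1), floors at the 30th and 70th percentile, 1.5-fold and 3-fold thresholds, the mean of all probe sets, leaving out probe sets open to cross-hybridization, and log2(signal + 30) without a floor. The calculation was tested on simulated arrays. Promoter windows came from RefSeq, assembly GRCr8.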

Additional observations from a re-analysis of the deposited data

How the results depend on the processing

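With a floor at the 30th percentile, 1 member passed 2-fold in ischemia against sham, namely Dmd with a bound of 1.51 in log2 ratio, which rests on a dim probe set. At that floor 251 of 12567 genes were 2-fold higher and 209 lower in ischemia against sham. The numbers were 448 and 187 in ES against ischemia, and 306 and 268 in exercise against ischemia. The counts over the 3 comparisons with ischemia became 2 for other dystrophin complex genes and 2 for the costamere list. The genes that this lower floor added to these lists rest on readings near or under the main floor. At 1.5-fold, 1 member passed in ES against ischemia (Sgcb) and 1 in ES against sham (Dysf), where 14.5% and 16.7% of all genes passed in either direction. Over the 3 comparisons with ischemia, the lists gave 1 of 4 other dystrophin complex genes and 1 of 23 for membrane repair. The integrin and laminin list gave 5 of 16 and the costamere list 4 of 16. Of 10092 genes, 499 were 1.5-fold higher and 322 lower in ischemia against sham. The numbers were 989 and 476 in ES against ischemia, and 406 and 428 in exercise against ischemia. No share of all genes over the 3 comparisons together is given, so these list counts have no matching background. At 3-fold the costamere count was 0. The integrin and laminin count at 2-fold was 1 under quantile normalization and 1 under cyclic loess. The other 96 such counts under alternatives, the number of probe sets above the floor included, were within 1.5 times the values reported, and 32 list counts of single comparisons were not. Sgcb in ES against ischemia ran from -0.79 to -0.69 in log2 ratio over 7 alternatives and Dysf from 0.44 to 0.55, with no change of sign. Xirp1 in ischemia against sham was at -0.98 with log2(signal + 30). No paired analysis was possible because each group had 1 array. Dim signal limits Dmd, Utrn and Nos1, for which nothing can be said of their expression.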
